A study of Rattus norvegicus with 6 samples.

Results

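Cytoplasmic dynein and its partner complex dynactin were described through 10 subunit genes, Dync1h1, Dync1i1, Dync1i2, Dync1li1, Dync1li2, Dynll1, Dynll2, Dctn1, Dctn2 and Dctn3, in RNA sequencing of cultured neonatal rat ventricular myocytes (NRVM). The members were chosen by gene symbol, with earlier results of these data known. Each had 1 row, so they made up 10 of the 13843 rows of the expression table. The 6 libraries fell into 3 groups of 2, and values are given below in the order of replicates 1 and 2. All cells were treated for 3 days and all were given phenylephrine (PE), which stimulates alpha-1 adrenergic receptors and makes cultured heart muscle cells grow. The PE group was PE with a control short hairpin RNA. The PE+TSA group received PE, TSA and the control hairpin. The PE+TSA+shJIP1 group received PE, TSA and a hairpin against JIP1. TSA, which the labels leave unexplained, usually stands for trichostatin A, a histone deacetylase inhibitor. The labels call the last group a knockout in some fields and a hairpin in others. Such cultures are primary cells that can hold other heart cells besides myocytes. Groups without PE, or with the JIP1 hairpin but without TSA, were not analysed here. Whether replicates were separate cultures is not stated in the labels, and the p-values therefore cover only the variation seen between these libraries, possibly technical in part or in full.

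Cytoplasmic dynein is the motor that carries vesicles, organelles and signalling complexes toward the minus ends of microtubules. Its heavy chain holds the ATPase ring and the microtubule-binding stalk, the intermediate chains hold the light chains and contact dynactin, and the light intermediate chains contact cargo adaptors. Dynactin is built on a short filament of the actin-related protein Arp1, with capping proteins at its ends and a shoulder of Dctn1, Dctn2 and Dctn3, and it makes dynein processive when an adaptor joins them. JIP1, encoded by Mapk8ip1, is a scaffold of the JNK kinase cascade that binds kinesin-1 and also Dctn1, which places dynactin among its known partners.

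The libraries differed in depth. The table gives FPKM, a read density scaled by transcript length and by library size, whose low values lie at whole-read steps. From these steps PE replicate 2 had 0.0481 of the depth of PE replicate 1 (20.8 times shallower), and the other 4 libraries had 0.72 to 1.34 of it. Mapk8ip1 was at 3.77 and 4.39 FPKM under PE, 14.6 and 17.9 under PE+TSA, and 1.80 and 3.65 under PE+TSA+shJIP1, so the hairpin libraries lay below all others. Neither its difference with TSA (log2 change 1.76 ± 0.34 SE, limma adjusted p = 0.0852) nor that with the hairpin (-2.25 ± 0.34, adjusted p = 0.077) passed the threshold of 0.05. The labelled cell type had its markers: 9 cardiomyocyte genes summed to 19405 to 24191 FPKM under PE, 5175 to 10886 under PE+TSA and 5366 to 9970 under PE+TSA+shJIP1. In bulk RNA, fewer cells of a type and less RNA per cell cannot be told apart.

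No member passed the test in any comparison. Of the 9 members with a mean of at least 1 FPKM, which were those tested, 0 passed with TSA, where 0.811% of 10359 features did (limma with adjustment over all features). With the hairpin 0 of 9 passed, where 0.290% of features did. For PE+TSA+shJIP1 against PE 0 of 9 passed, where 8.27% of features did. That last share, 857 features, was not stable: 941 passed without PE replicate 1, but 4 to 19 without any other library and 4 when only the 2 groups compared were fitted. At an unadjusted p under 0.05 there were 1 (Dynll1), 1 (Dctn3) and 2 (Dynll1 and Dctn3) in the 3 comparisons, beside 18.7%, 14.9% and 30.7% of all features. The groups did not overlap for 5, 4 and 5 of the 9, beside 50.6%, 50.0% and 60.6% of all features, so these counts were close to the background. The median log2 change of the tested members was 0.14, 0.15 and 0.04, and that of all features 0.10, -0.0031 and 0.10. All changes are on the log2(FPKM + 1) scale. The comparisons share libraries, each group entering 2 of them.

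**Figure D1:**
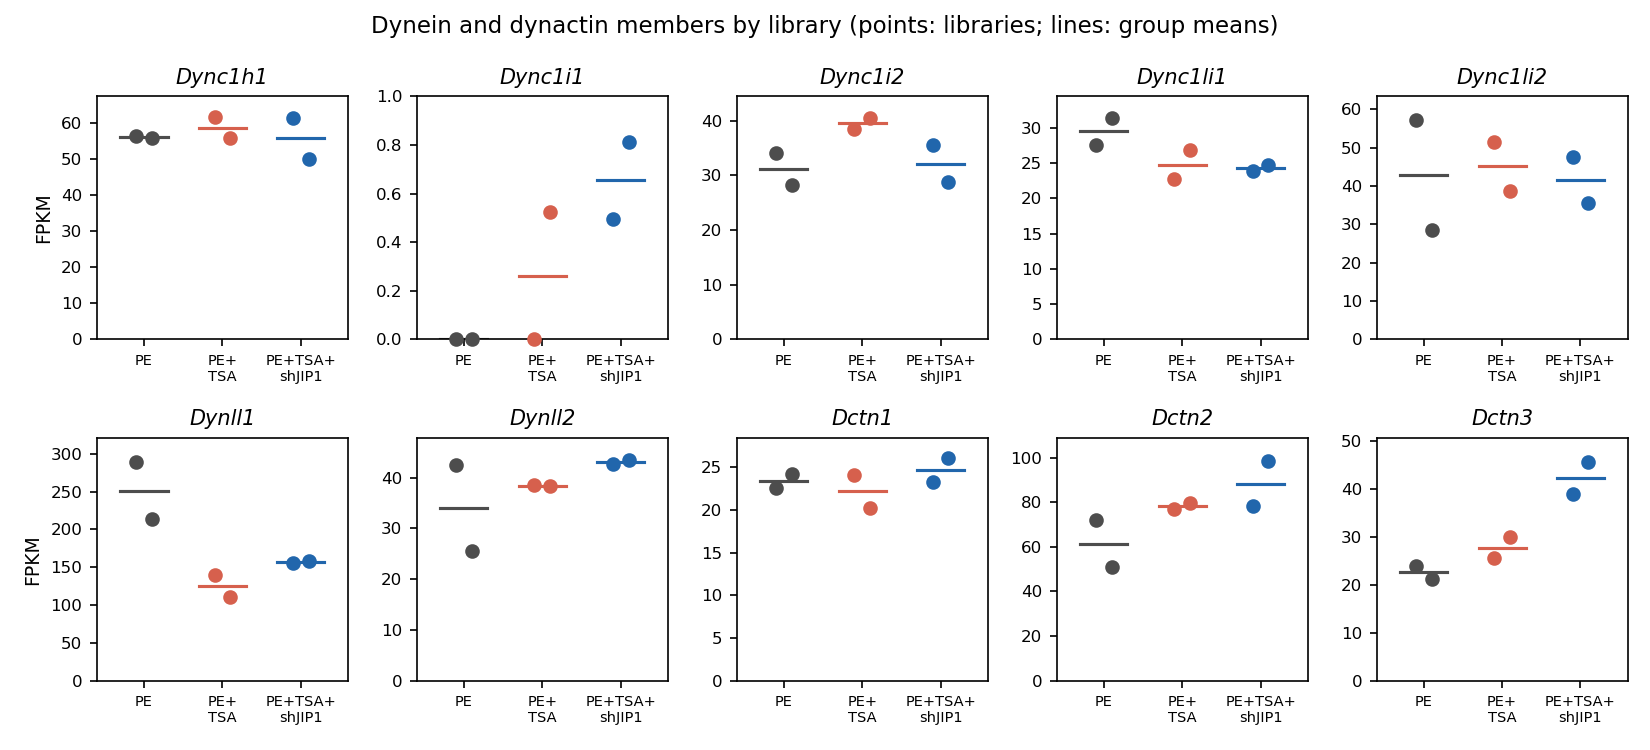
FPKM (y axis, from 0) of the 10 members in the 6 libraries by group (x axis); points are libraries and lines are group means of 2. Dync1h1 and Dctn1 lie at like levels in all groups, Dynll1 is highest in the 2 PE libraries, Dctn3 is highest in the 2 PE+TSA+shJIP1 libraries, and Dync1i1 stays under 1 FPKM.

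The motor heavy chain was the steadiest member. Dync1h1 was at 56.3 and 55.7 FPKM under PE, 61.6 and 55.6 under PE+TSA, and 61.2 and 50.0 under PE+TSA+shJIP1. The 3 groups overlapped, and the highest library was 1.23 times the lowest. Only 0.83% of the features tested had a smaller ratio, and the median ratio over all of them was 2.55. This ratio also depends on the number of reads. Features with few reads have larger ratios, most of all through the shallow PE replicate 2, where 3667 of 13843 features were at 0. No comparison with features of like level or length was made, so the rank is not read as a trait of the gene. The log2 change was 0.06 ± 0.20 with TSA (95% interval -0.41 to 0.54) and -0.08 ± 0.20 with the hairpin (-0.56 to 0.40). These intervals still allow a fold change from 0.75 to 1.45 with TSA and from 0.68 to 1.32 with the hairpin. The features with the profile nearest to that of Dync1h1 over the 6 libraries were Lamc1, a laminin chain, Tbc1d10b, Ppp4r2, Ankrd17 and Dcaf5, whose centred log2 values differed from it by a root mean square of 0.05 to 0.06. They are the 5 nearest of 7785 candidates with a mean of at least 5 FPKM.

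The intermediate chains are encoded by a gene that is expressed broadly, Dync1i2, and one that is known mainly from neurons, Dync1i1. Dync1i2 was at 34.1 and 28.3 FPKM under PE, 38.6 and 40.6 under PE+TSA, and 35.6 and 28.8 under PE+TSA+shJIP1. Both PE+TSA libraries were above the other 4, with a log2 change of 0.34 ± 0.21 with TSA (limma adjusted p = 0.423) and -0.30 ± 0.21 with the hairpin (adjusted p = 0.576).

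Dync1i1 was listed at 0 in PE+TSA replicate 1 and in the PE libraries. It was at 0.524 FPKM in PE+TSA replicate 2 and at 0.497 and 0.814 under PE+TSA+shJIP1. Its mean was under 1 FPKM, so it was not tested, and it made up at most 2.75% of the summed FPKM of both intermediate chain genes in any library. Neuronal markers were also higher in the TSA-treated libraries. The 12 listings of 11 neuronal marker genes summed to 6.50 to 11.6 FPKM under PE, 92.2 to 97.9 under PE+TSA and 46.9 to 66.8 under PE+TSA+shJIP1, with 11 of the 12 at a higher mean under PE+TSA than under PE. In PE the listings of Stmn2, Syp and 1 of the 2 of Syt1 were at 0 in both libraries. Snap25 alone was at 39.3 and 49.9 FPKM under PE+TSA, and that Syt1 listing at 23.0 and 0. Of the 10 neuronal listings tested, 1 passed with TSA (Snap25), 0 with the hairpin and 3 for PE+TSA+shJIP1 against PE (limma). Among all features 0.811%, 0.290% and 8.27% did. At an unadjusted p under 0.05 there were 9, 1 and 6 of these listings, beside 18.7%, 14.9% and 30.7% of all features. The part of these markers in the Dync1i1 values was not tested.

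The light intermediate chains Dync1li1 and Dync1li2, which connect the motor to its cargo adaptors, did not pass. Dync1li1 was at 27.6 and 31.5 FPKM under PE, 22.7 and 26.8 under PE+TSA, and 23.9 and 24.7 under PE+TSA+shJIP1. Both PE libraries were above the other 4, but the log2 change with TSA was -0.25 ± 0.21 (95% interval -0.74 to 0.25, limma adjusted p = 0.543). Dync1li2 was at 57.2 and 28.6 FPKM under PE, 51.5 and 38.8 under PE+TSA, and 47.5 and 35.5 under PE+TSA+shJIP1. The libraries of each group lay far apart, replicate 1 above replicate 2 each time, and the groups overlapped in every comparison. The shallow PE replicate 2 was the lowest library for this gene, and without it the log2 change with TSA was -0.35, against 0.14 ± 0.37 with it.

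Neither light chain gene of the LC8 type passed. Dynll1 and Dynll2 encode nearly identical proteins that form dimers on the intermediate chains and also bind many proteins outside the motor. Dynll1 was at 289 and 214 FPKM under PE, 140 and 110 under PE+TSA, and 155 and 158 under PE+TSA+shJIP1. Both PE libraries were above all 4 TSA-treated ones, and the hairpin libraries lay between the groups. The log2 change was -0.995 ± 0.234 with TSA (95% interval -1.56 to -0.43, unadjusted p = 0.00489, limma adjusted p = 0.123). The mean under PE+TSA was 0.498 of that under PE. The log2 change was 0.33 ± 0.23 with the hairpin (adjusted p = 0.568) and -0.66 ± 0.23 for PE+TSA+shJIP1 against PE (adjusted p = 0.121).

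Dynll2 was at 42.6 and 25.6 FPKM under PE, 38.5 and 38.4 under PE+TSA, and 42.7 and 43.5 under PE+TSA+shJIP1. The shallow PE replicate 2 was the lowest, and PE replicate 1 lay among the TSA-treated libraries. The log2 change with TSA was 0.21 ± 0.27 (95% interval -0.44 to 0.87, limma adjusted p = 0.691), and -0.14 without PE replicate 2. In RefSeq Dynll2 overlaps with LOC120095169, which has no row here. Without a known strand the reads of the shared part cannot be told apart.

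Dynll1 made up 87.1% and 89.3% of the summed FPKM of both genes under PE, 78.5% and 74.2% under PE+TSA, and 78.4% and 78.5% under PE+TSA+shJIP1. This share was 88.2% ± 1.55 (SD, n = 2) under PE and 76.3% ± 3.04 under PE+TSA (two-sided exact permutation p = 0.333, the smallest that 2 against 2 libraries can give). The share thus separated PE from the TSA-treated libraries, PE replicate 2 included. Dynll1 was also at 5.13 and 3.85 times the FPKM of Dync1h1 under PE, 2.28 and 1.98 times under PE+TSA, and 2.54 and 3.17 times under PE+TSA+shJIP1.

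Markers of myocytes, fibroblasts and smooth muscle were also lower with TSA, while those of endothelial cells and macrophages were mixed. All 9 cardiomyocyte markers in the table had a lower mean under PE+TSA than under PE, with the sums given above, as had 7 of 8 fibroblast markers (summed to 1048 to 1702 FPKM under PE and 523 to 728 under PE+TSA) and all 4 smooth muscle markers (1291 to 1623 and 242 to 382). In the hairpin group the fibroblast markers summed to 564 to 675 FPKM and the smooth muscle markers to 479 to 498. None of the 9 cardiomyocyte markers and none of the 7 fibroblast markers tested passed with TSA (limma). Of the 4 smooth muscle markers 1 fell (Acta2), where 0.811% of all features passed. At an unadjusted p under 0.05 there were 5, 3 and 4 with TSA, beside 18.7% of all features. For PE+TSA+shJIP1 against PE 2, 1 and 2 of the 3 lists fell, where 8.27% of all features passed, a share that was not stable. The 5 endothelial markers summed to 13.2 to 15.2 FPKM under PE, 16.3 to 37.3 under PE+TSA and 7.82 to 11 under PE+TSA+shJIP1, with 3 of 5 at a higher mean under PE+TSA than under PE. The 3 macrophage markers in the table summed to 7.91 to 9.28, 5.10 to 11 and 4.43 to 5.08 FPKM, with 2 of 3 higher under PE+TSA, and none of either list passed in any comparison (limma; 0 with TSA at an unadjusted p under 0.05). The part of all these marker lists in the Dynll1 difference was not tested.

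**Figure D2:**
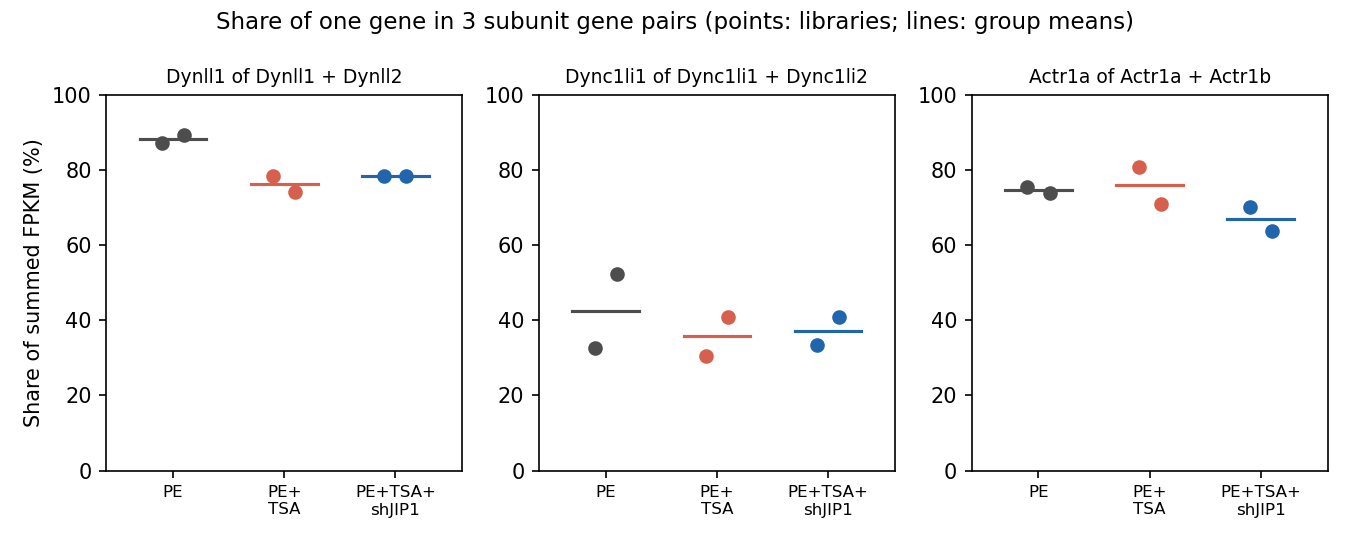
Share (y axis, percent of summed FPKM, 0 to 100) of Dynll1 in Dynll1 and Dynll2, of Dync1li1 in Dync1li1 and Dync1li2, and of Actr1a in Actr1a and Actr1b, by group (x axis); points are libraries and lines are group means of 2. The Dynll1 share is 87.1% and 89.3% under PE and at most 78.5% in the other libraries, while the Dync1li1 share overlaps between all groups.

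Of the dynactin shoulder, Dctn1, the large subunit that binds microtubules and dynein and that JIP1 is known to contact, varied little. It was at 22.6 and 24.3 FPKM under PE, 24.1 and 20.3 under PE+TSA, and 23.2 and 26.1 under PE+TSA+shJIP1. The groups overlapped in each comparison, and the highest library was 1.29 times the lowest, a ratio smaller than that of all but 1.54% of features tested. As for Dync1h1, features of like level were not compared separately. The log2 change was -0.08 ± 0.21 with TSA (95% interval -0.58 to 0.43) and 0.15 ± 0.21 with the hairpin (-0.36 to 0.65). In RefSeq the gene shares part of its span with Wdr54, at 2.75 to 7.24 FPKM here, and without a known strand the reads of the shared part cannot be told apart.

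Dctn2, dynamitin, whose excess is known to take dynactin apart, was at 71.9 and 50.9 FPKM under PE, 77.1 and 79.6 under PE+TSA, and 78.1 and 98.5 under PE+TSA+shJIP1. Both PE libraries lay below the other 4. The log2 change was 0.37 ± 0.24 with TSA (limma adjusted p = 0.442) and 0.53 ± 0.24 for PE+TSA+shJIP1 against PE (adjusted p = 0.193). Without the shallow PE replicate 2 both lay nearer 0, at 0.12 with TSA and 0.28 in the third comparison.

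Dctn3, the small shoulder subunit, was at 24.0 and 21.3 FPKM under PE, 25.5 and 29.96 under PE+TSA, and 39.0 and 45.8 under PE+TSA+shJIP1. The 3 groups did not overlap and stood in that order. The log2 change was 0.28 ± 0.21 with TSA (limma adjusted p = 0.497), 0.59 ± 0.21 with the hairpin (unadjusted p = 0.0288, adjusted p = 0.272) and 0.87 ± 0.21 for PE+TSA+shJIP1 against PE (95% interval 0.36 to 1.38, unadjusted p = 0.0054, adjusted p = 0.0556). The mean under PE+TSA+shJIP1 was 1.87 times that under PE. That difference passed in 1 of 13 alternative settings, with a filter of 5 FPKM (adjusted p = 0.0473), and the adjusted p reached 0.249 when single libraries were left out. Relative to Dctn1, Dctn3 was at 1.06 and 0.877 under PE, 1.06 and 1.48 under PE+TSA, and 1.68 and 1.75 under PE+TSA+shJIP1.

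**Figure D3:**
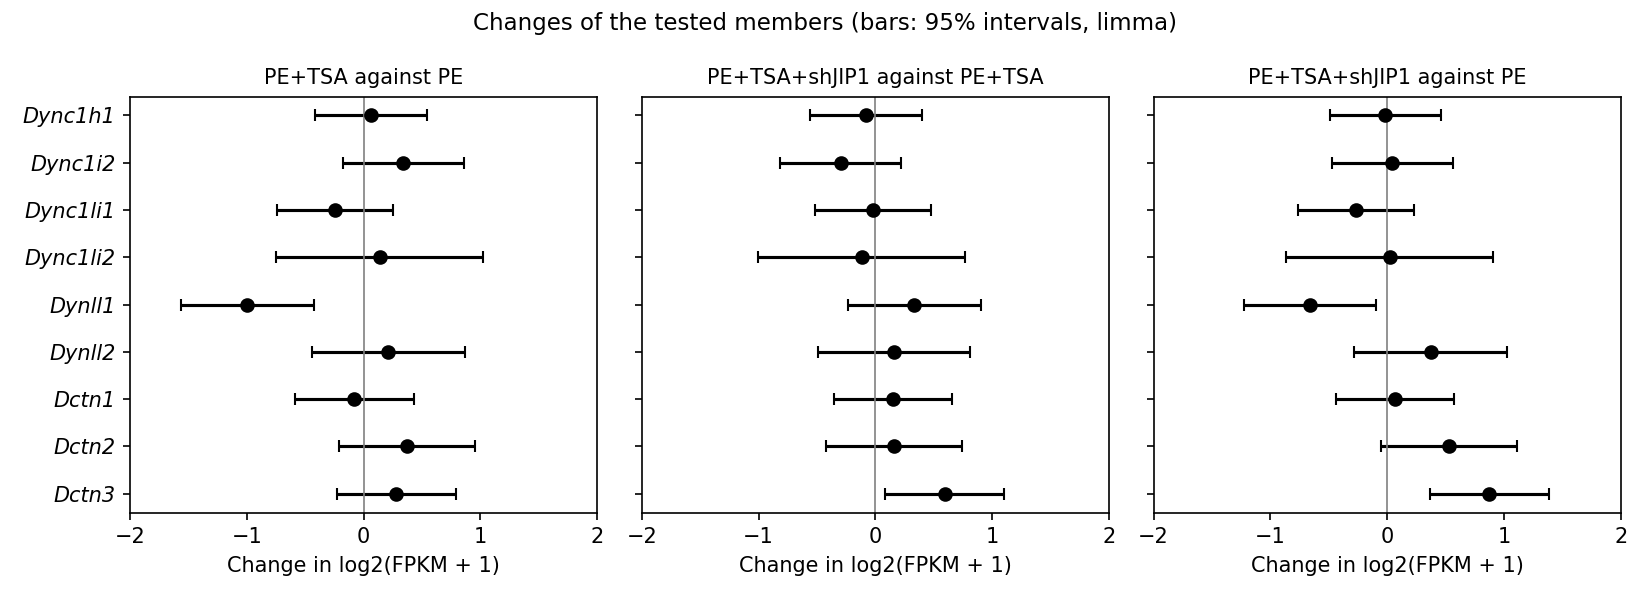
Change in log2(FPKM + 1) (x axis) of the 9 members tested (y axis) in the 3 comparisons; points are limma estimates from 2 libraries per group and bars are 95% intervals, not adjusted for multiple tests. Intervals that leave out 0 are those of Dynll1 with TSA (-1.56 to -0.43), of Dctn3 with the hairpin (0.08 to 1.10), and of Dynll1 and Dctn3 in the third comparison.

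FPKM, being per length, also allowed the members to be ordered. Dynll1 had the highest mean in each group (252, 125 and 157 FPKM) and Dctn2 the next (61.4, 78.4 and 88.3), followed by Dync1h1 (56.0, 58.6 and 55.6). The 2 libraries of Dynll1 were above those of every other member in each group. Under PE the libraries of each member from Dctn2 through Dync1h1, Dync1li2, Dynll2 and Dync1i2 to Dync1li1 overlapped with those of its neighbour in this order. Dctn1 and Dctn3 overlapped with each other under PE, at means of 23.4 and 22.6 FPKM. Dctn3 held the ninth place under PE and the fifth under PE+TSA+shJIP1, where its libraries overlapped with those of Dynll2 above and Dync1li2 below. Over all libraries, the highest was less than 1.5 times the lowest for 4 members (Dync1h1, Dctn1, Dync1li1 and Dync1i2), against 8.57% of all features tested. That share includes features with few reads, whose ratios are larger.

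The other parts of the complexes were read from a list of 13 further dynein and dynactin subunits, 12 of which were in the table and tested. None passed with TSA or with the hairpin, with 1 and 3 at an unadjusted p under 0.05, beside 18.7% and 14.9% of all features. In the third comparison 1 of 12 fell and none rose, close to the 8.27% of all features that passed there. That gene was Actr1a, which encodes Arp1, the building block of the dynactin filament. It was at 63.4 and 58.7 FPKM under PE, 53.5 and 37.4 under PE+TSA, and 21.7 and 19.7 under PE+TSA+shJIP1. The 3 groups did not overlap. It fell by 1.51 ± 0.23 on the log2 scale against PE (limma adjusted p = 0.0221), and the difference with the hairpin was -1.08 ± 0.23 (unadjusted p = 0.00333, adjusted p = 0.134). The call against PE held without PE replicate 1 (adjusted p = 0.0496). It was lost without any other library, with adjusted p from 0.0554 to 0.154 and log2 changes from -1.58 to -1.45.

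The means of Dctn2 and Dctn3 thus stood above their PE levels and that of Actr1a below, but Dctn2 and Dctn3 did not pass. Dctn1, also of the shoulder, varied little. Actr1a was at 0.882 and 1.15 times the FPKM of Dctn2 under PE, 0.693 and 0.47 times under PE+TSA, and 0.278 and 0.2 times under PE+TSA+shJIP1. Among the subunits at the ends of the filament, Dctn4 was at 25.2 and 16.0 FPKM under PE, 22.4 and 20.5 under PE+TSA, and 34.2 and 31.2 under PE+TSA+shJIP1. Dctn6 ranged from 170 to 213 FPKM with overlapping groups. Capzb, a subunit of the capping protein that dynactin shares with the actin cytoskeleton, was at 335 and 252 FPKM under PE, 313 and 292 under PE+TSA, and 394 and 452 under PE+TSA+shJIP1. Named after their values were seen, Actr1b, a near copy of Actr1a, was at 20.5 and 20.6 FPKM under PE, 12.7 and 15.3 under PE+TSA, and 9.19 and 11.2 under PE+TSA+shJIP1, and Capza1, another capping protein subunit, at 84.0 and 63.9, 102 and 88.4, and 50.8 and 44.1. Actr10, which encodes Arp11 at the pointed end of the filament and was also chosen after its values were seen, went another way: it was at 31.6 and 28.5 FPKM under PE, 48.0 and 49.9 under PE+TSA, and 31.0 and 29.2 under PE+TSA+shJIP1. Both PE+TSA libraries were above the other 4, and its log2 change with TSA was 0.69 ± 0.19 (limma adjusted p = 0.148, unadjusted p = 0.00977). The hairpin difference was -0.68 ± 0.19 (adjusted p = 0.187, unadjusted p = 0.00992). None of these 3 passed in any comparison. Of the remaining dynein light chains, Dynlrb1, of the roadblock type, ranged from 322 to 490 FPKM and Dynlt1, of the Tctex type, from 26.2 to 42.5.

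**Figure D4:**
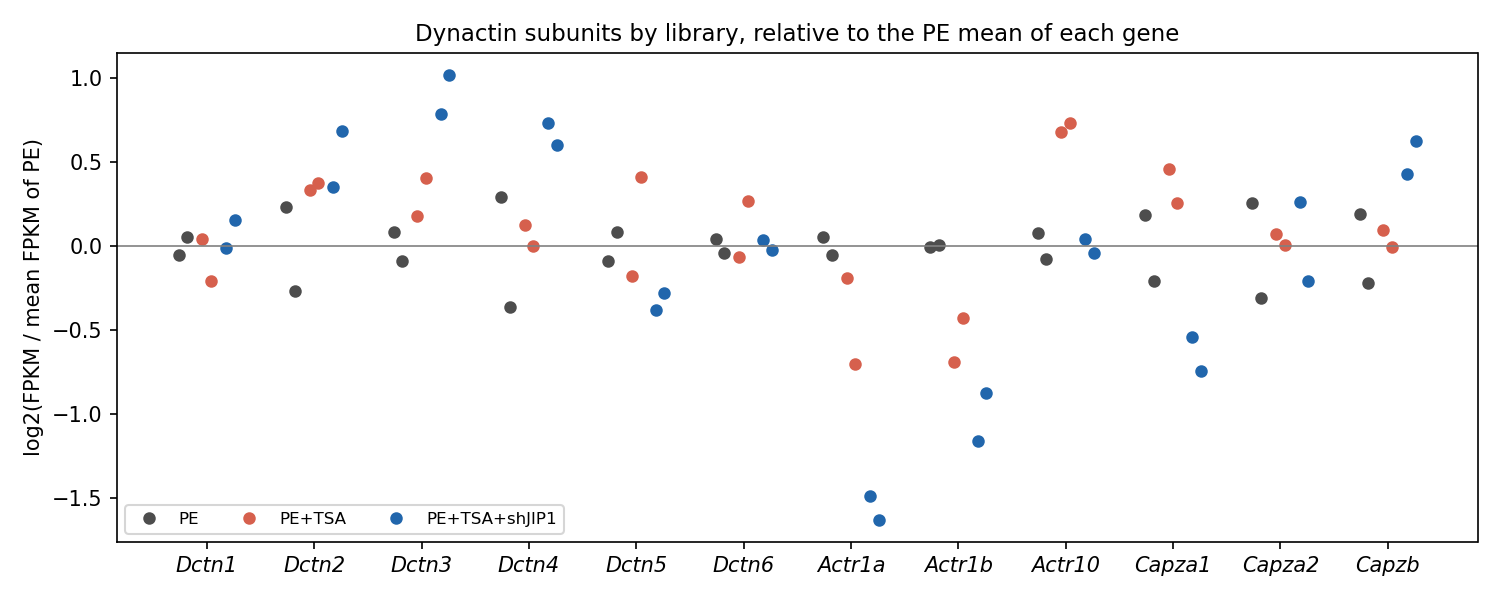
log2 of FPKM over the PE mean of the same gene (y axis) for 12 dynactin subunit genes (x axis); points are the 2 libraries of each group. Actr1a and Actr1b lie lowest under PE+TSA+shJIP1, Dctn3 lies highest there, and Dctn1 and Dctn6 stay near 0; of these 12 genes Actr1a alone passed the test, and only against PE.

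The proteins that regulate dynein were followed in a list of 6, of which none passed with TSA or with the hairpin (2 and 0 at an unadjusted p under 0.05, beside 18.7% and 14.9% of all features). For PE+TSA+shJIP1 against PE 1 of the 6 fell, Clip1, where 8.27% of all features passed. Clip1, a protein that tracks microtubule plus ends and recruits dynactin there, was at 26.9 and 26.6 FPKM under PE, 14.8 and 13.9 under PE+TSA, and 13.2 and 9.34 under PE+TSA+shJIP1 (log2 change -1.20 ± 0.24 in the third comparison, limma adjusted p = 0.0384). Pafah1b1, the lissencephaly protein that holds dynein in an open, active form, ranged from 40.0 to 58.2 FPKM. Its partner Ndel1 was at 35.5 and 32.4 FPKM under PE, 15.3 and 20.1 under PE+TSA, and 24.4 and 23.3 under PE+TSA+shJIP1. The 3 groups of Ndel1 did not overlap, and its log2 change with TSA was -0.92 ± 0.22 (unadjusted p = 0.00546, adjusted p = 0.125). The related Nde1 ranged from 10.8 to 17.0 FPKM.

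Of 16 adaptors and cargo links 13 were tested. With TSA 1 fell, Rilp, and none rose, and with the hairpin none passed, where 0.811% and 0.290% of all features did. At an unadjusted p under 0.05 there were 5 and 3 of 13, beside 18.7% and 14.9%. Mapk8ip1, the target of the hairpin, is on this list and in both counts (limma unadjusted p = 0.00185 with TSA and 0.00049 with the hairpin). Its place in the hairpin count follows from the design. In the third comparison Rilp and Trak2 fell and Hap1 rose, 3 of 13 beside 8.27% of all features. The list was chosen with earlier results of these data known, so this count is not read as an excess. Rilp, which links Rab7 on late endosomes and lysosomes to dynein, was at 14.4 and 11.7 FPKM under PE, 1.55 and 1.96 under PE+TSA, and 1.85 and 2.47 under PE+TSA+shJIP1. It fell by 2.34 ± 0.31 on the log2 scale with TSA (limma adjusted p = 0.0386) and by 2.15 ± 0.31 in the third comparison (adjusted p = 0.0194). Both PE libraries were far above the other 4.

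Hap1, a huntingtin-associated protein that binds Dctn1, rose in the hairpin libraries against PE, with 0.841 and 1.21 FPKM under PE, 4.84 and 3.63 under PE+TSA, and 4.90 and 6.53 under PE+TSA+shJIP1 (log2 change 1.72 ± 0.34 in the third comparison, limma adjusted p = 0.0364). Trak2, which links mitochondria to kinesin and dynein, was at 71.0 and 50.7 FPKM under PE, 63.2 and 41.9 under PE+TSA, and 24.7 and 21.4 under PE+TSA+shJIP1 (-1.35 ± 0.28, adjusted p = 0.0416). Its relative Trak1 was at 32.6 and 24.7, 26.8 and 27.3, and 15.6 and 14.4 FPKM, and did not pass in any comparison. The Golgi and vesicle adaptor Bicd2 stayed between 60.9 and 67.3 FPKM in all libraries. Mapk8ip3, the scaffold JIP3, was at 12.5 and 14.6 FPKM under PE, 19.8 and 40.5 under PE+TSA, and 18.4 and 31.5 under PE+TSA+shJIP1. Hook2 stayed under 5 FPKM.

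These calls depended on single libraries and on the processing. With 1 library left out at a time, Rilp lost its call with TSA each time (limma adjusted p from 0.0584 to 0.293), as did Clip1 (0.0726 to 0.198), Hap1 (0.0643 to 0.198) and Trak2 (0.0717 to 0.215) in the third comparison. In the third comparison Rilp held only without PE replicate 1 (0.0439) and was lost without any other library (0.0556 to 0.128). Every call on these genes and on Actr1a was also lost when only the 2 groups compared were fitted (adjusted p = 0.130 for Rilp with TSA, and 0.0549 for Actr1a, 0.0559 for Rilp, 0.0866 for Clip1, 0.0710 for Trak2 and 0.0784 for Hap1 in the third comparison). The call of Rilp with TSA was further lost with a pseudocount of 0.1 (adjusted p = 0.0509), with no filter (0.0825) and with a filter of 5 FPKM (0.0803). With no filter the calls of Clip1 (0.0514), Trak2 (0.0561) and Hap1 (0.0558) in the third comparison were lost, and that of Hap1 also with quantile normalization (0.0548).

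**Figure D5:**
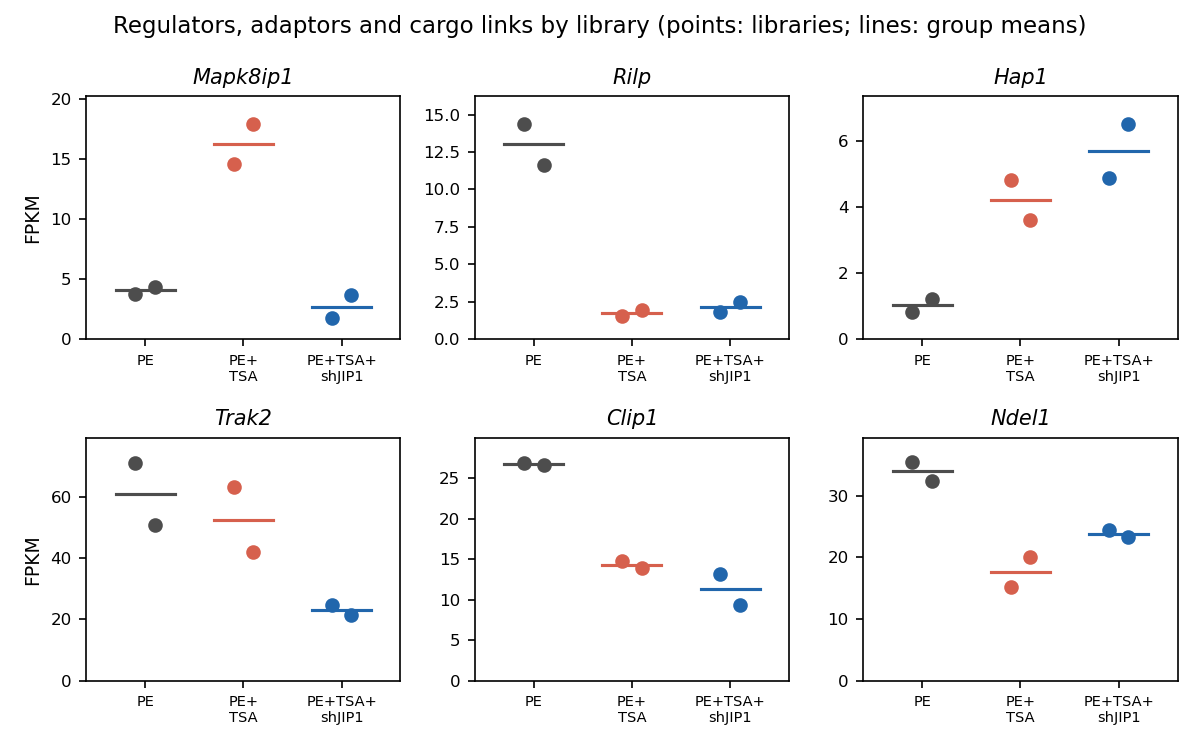
FPKM (y axis, from 0) of Mapk8ip1, Rilp, Hap1, Trak2, Clip1 and Ndel1 in the 6 libraries by group (x axis); points are libraries and lines are group means of 2. Mapk8ip1 is highest under PE+TSA, Rilp, Clip1 and Ndel1 are highest under PE, Hap1 is lowest under PE, and Trak2 is lowest under PE+TSA+shJIP1.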

How the data were processed

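RNA sequencing of 6 NRVM libraries was used, as 1 table of FPKM values per gene that the authors deposited. Per the submitters' processing notes Cufflinks and the rat build rn6 were used, without a version or a stated role. Aligner, annotation and library strand are not given in these sources. How reads that fit more than 1 gene were assigned is therefore unknown, and sequence shared between the Dynll1 and Dynll2 genes was not examined. The unit was taken from the values and from Cufflinks, since the header gives none. Tests used log2(FPKM + 1) of 10359 of 13843 rows, those whose mean over the 6 libraries reached 1 FPKM. A group-means model of all libraries was fitted in limma 3.58.1 (R 4.3.3, prior variance following the mean), and two-sided p-values were adjusted per comparison by the Benjamini-Hochberg method (threshold 0.05). The limma fit was tried on simulated data in which all libraries had like noise, which leaves out the low depth of PE replicate 2. Relative depth came from ratios of low values at whole-read steps, that of PE replicate 2 from 10 features. Totals are unknown, so no counting intervals are given. The members and lists were chosen with earlier results of these data known. Named genes were the members, Mapk8ip1, 16 fixed genes of the dynein lists, any list gene past the threshold, and the 5 profiles nearest Dync1h1. All 10 member symbols matched the RefSeq table of GRCr8, used only for names and neighbouring genes. Alternatives were the pseudocount, filter, scaling, groups in the fit, replicate block and each library left out.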

Additional observations from a re-analysis of the deposited data

How the results depend on the processing

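No value of a member passed the threshold under the 13 alternatives, except that of Dctn3 in the third comparison with a filter of 5 FPKM. Of 351 values of members under alternatives, 21 had the opposite sign, from 12 results whose reported log2 change was at most 0.21 in size. With trimmed mean scaling these were Dync1h1 with TSA (-0.0027), and Dync1i2 (-0.0082) and Dync1li2 (-0.030) in the third comparison, and with quantile normalization Dync1li1 with the hairpin (0.00075). With 1 library left out, the log2 change with TSA ranged from -0.010 to 0.14 for Dync1h1, -0.35 to 0.63 for Dync1li2, -0.14 to 0.57 for Dynll2 and -0.20 to 0.042 for Dctn1. With the hairpin it ranged from -0.22 to 0.063 for Dync1h1, -0.14 to 0.10 for Dync1li1, -0.32 to 0.087 for Dync1li2 and -0.0040 to 0.33 for Dctn2. In the third comparison it ranged from -0.16 to 0.13 for Dync1h1, -0.10 to 0.19 for Dync1i2, -0.47 to 0.51 for Dync1li2 and -0.010 to 0.15 for Dctn1. Quantile normalization moved the median change of all features with TSA from 0.10 to -0.02. The difference of Dynll1 with TSA stayed between -1.21 and -0.78, with limma adjusted p from 0.0805 to 0.494.

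The counts over all features, 84 with TSA, 30 with the hairpin and 857 in the third comparison, were 14 and 1 for the first pair with no filter, and 5, 8 and 4 when only the 2 groups compared were fitted. With 1 library left out they ranged from 6 to 203, 7 to 16 and 4 to 941, with the lone library of a group assumed to vary like the others. Of these, the third count was 15 without PE replicate 2 and 941 without PE replicate 1. The cause was not tested. The replicate numbers are shared between groups. Differences between replicates 1 and 2 correlated across features at 0.07 (PE and PE+TSA), 0.12 (PE+TSA and PE+TSA+shJIP1) and 0.04 (PE and PE+TSA+shJIP1). Noise, most of all in the shallow PE replicate 2, lowers such values, so they cannot show whether the numbers pair the samples. Of the cardiomyocyte markers, Tnnt2, Tnni3, Actc1, Myh6, Myl2, Myl3 and Actn2 were higher in replicate 1 than in replicate 2 of each group. Myh7 and Ryr2 did not keep the same direction. Of the fibroblast markers, Col1a1 and Pdgfra were lower in replicate 1 of each group. Col3a1, Postn, Dcn, Lum and Tcf21 did not keep the same direction. The main fit did not pair the samples. With the replicate number as a block the counts were 28, 18 and 1063, no member passed, and Rilp lost its call with TSA (adjusted p = 0.0686).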

Other observations

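Dynein-2, the motor that returns cargo along cilia, was near the lower limit of the data. Its heavy chain Dync2h1 was at 1.09 and 1.87 FPKM under PE, 1.90 and 1.71 under PE+TSA, and 2.94 and 1.71 under PE+TSA+shJIP1, against at least 50.0 FPKM in every library for the cytoplasmic heavy chain Dync1h1. None of the 5 dynein-2 genes tested passed in any comparison (limma), where 0.811%, 0.290% and 8.27% of all features did. At an unadjusted p under 0.05 there were 0, 0 and 1 of the 5, beside 18.7%, 14.9% and 30.7% of all features. Atmin, a transcription factor known to drive Dynll1, was at 0.989 and 0.381 FPKM under PE, 1.04 and 1.04 under PE+TSA, and 0.548 and 1.17 under PE+TSA+shJIP1, with a mean under the limit for testing.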
